A study of Culter alburnus with 6 samples.

Results

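The loci described here are 200 gene loci of the topmouth culter, Culter alburnus. Their scaled read counts were low in 1 control library, control replicate 3, and less than 3-fold apart in the other 5 libraries of the series. The loci were chosen by the values of control replicate 3. With control replicate 3 set aside, 12605 of the 28228 loci in the count table were eligible, which means a count of 50 or more in every other library, a mean of at most 15000 normalised counts over them and less than a 3-fold difference between the highest and the lowest of them. The 200 eligible loci with the lowest ratio of control replicate 3 to the mean of the other 5 were taken. Normalised counts are raw counts divided by a size factor per library, the median ratio of the library to the geometric mean over all libraries.

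Embryos of this freshwater fish of the carp order were used at the tail-bud stage to set up cryopreservation by vitrification, and messenger RNA was sequenced to compare animals from cryopreserved embryos with controls. The 3 control libraries are titled wt and the 3 cryopreserved libraries treat, each with a replicate number. The labels call all 6 samples embryos, whereas the design text speaks of larvae. They give no age and no strain, and they do not say whether the cryopreserved samples were rewarmed in a water bath or by a laser with gold nanorods. Whether replicates are separate clutches or tanks is not stated, so p-values measure only the spread between these samples, which may be technical. Library totals lay between 26611022 and 30795972 counts. Control replicate 3 had 29951314 counts and a size factor of 0.890, against size factors of 0.863 in cryopreserved replicate 1 and 1.07 to 1.14 in the other 4 libraries.

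Vitrification cools a cell or embryo into a glass so fast, and with so much cryoprotectant, that ice crystals do not form. A protein-coding locus of a vertebrate holds exons separated by introns, which are often far longer than the exons and are removed when the transcript is spliced. Messenger RNA captured by its poly-A tail is mostly spliced, so the span of a locus on the chromosome is not the length of the RNA that was counted. The loci carry locus tags, and neither the count table nor the annotation used here pairs any tag with a gene name. The loci therefore have no stated function here, and tissue markers could not be looked up to check the labelled material.

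The depletion in control replicate 3 was large and was graded from locus to locus. These values chose the loci and are given as a description. The median normalised count of the 200 loci was 13.5 in control replicate 3, with a range from 0 to 484. It was 283 in control replicate 1 and 352 in control replicate 2. In cryopreserved replicates 1, 2 and 3 it was 280, 225 and 279. No locus on the list had a count in control replicate 3 that reached any of its other 5 values: among those above 0, the lowest other library exceeded control replicate 3 by at least 5.34-fold and by a median of 11.9-fold. Together the 200 loci took 0.0177% of the counts of control replicate 3, and between 0.275% and 0.486% of the counts of each other library.

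Of the 200 loci, 20 were at 0 counts in control replicate 3. A further 73 had 1 to 10 counts, 75 had 11 to 50 and 32 had more than 50, with 431 as the highest. The median ratio of control replicate 3 to the mean of the other 5 was 0.0534, a log2 ratio of -4.23. The upper limit behind a count of 0 is 3 counts, or 3.37 normalised counts in this library, a limit for counting error alone that takes each count as an independent fragment. Even counts outnumbered odd ones among the low values of this library, so the limit may be too low and the folds measured from it too high. Measured from it, per library, the 20 loci at 0 lay below the mean of the remaining libraries by at least 18.3-fold to at least 63.2-fold. With all 43 loci at or under 3 counts set to this limit, the median of the list was 18.5-fold lower.

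**Figure D1:**
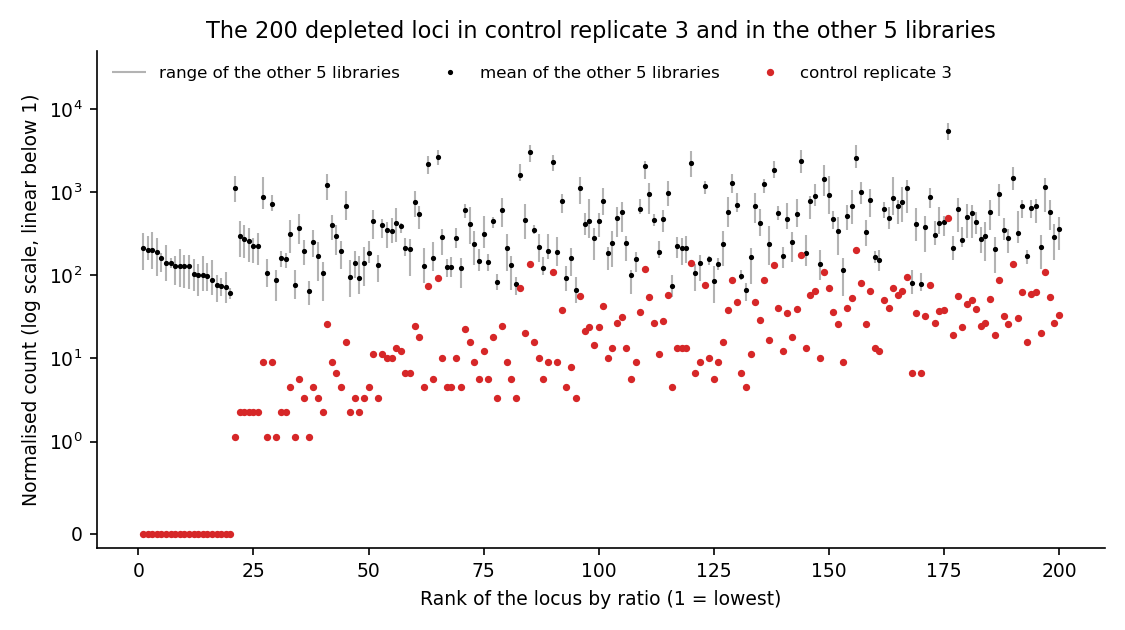
Normalised counts of the 200 loci, ordered on the horizontal axis by the ratio of control replicate 3 to the mean of the other 5 libraries; the vertical axis is logarithmic above 1 and linear below. Red points are control replicate 3, black points the mean of the other 5 libraries, and grey lines their range. The 20 loci at 0 stand at the left. Every red point lies below its grey line, which follows from the way the loci were chosen.

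The locus with the lowest rank, ABG768_012068, had 0 counts in control replicate 3. It had 117 and 326 normalised counts in control replicates 1 and 2, and 234, 118 and 271 in cryopreserved replicates 1, 2 and 3. Its other 5 libraries averaged 213 ± 93.4 (SD, n = 5), at least 63.2-fold above the limit in control replicate 3, with the same reservation about that limit. The remaining loci named at this end were also at 0. ABG768_011144 had 154 and 300 in control replicates 1 and 2 and 241, 162 and 157 in the cryopreserved libraries. ABG768_007256 had 164 and 219 in these controls and 328, 120 and 166 in the cryopreserved libraries. Which of the other 5 libraries was highest thus differed among them, being control replicate 2 for the first pair and cryopreserved replicate 1 for ABG768_007256. ABG768_021061 had 204 and 284 in control replicates 1 and 2 and 98.5, 145 and 217 in the cryopreserved libraries.

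Depletion was not limited to loci with few counts. In 22 of the 200 loci the mean over the other 5 libraries was above 1000 normalised counts. ABG768_008584 had the highest mean on the list, with 5509 and 6683 normalised counts in control replicates 1 and 2 and 6731, 4262 and 4193 in the cryopreserved libraries. Control replicate 3 had 484, which was 11.3-fold below the mean of 5476 ± 1240 (SD, n = 5). The range of the other 5 libraries is narrow beside that gap, as the 3-fold limit and the choice of the lowest ratios require of every locus listed. ABG768_026063 had 3690 and 3372 in control replicates 1 and 2, 2284, 2814 and 3125 in the cryopreserved libraries and 134.8 in control replicate 3, a 22.7-fold difference from the mean. ABG768_011755, with a span of 297 kb the longest locus on the list, had 3203 and 2277 in these controls, 2486, 3190 and 2111 in the cryopreserved libraries and 92.1 in control replicate 3, which was 28.8-fold lower. The raw counts behind these values of control replicate 3, from 82 to 431, were well above the limit of 3. ABG768_019653 had 2143 and 2990 in control replicates 1 and 2, 3701, 1920 and 2233 in the cryopreserved libraries and 203 in control replicate 3.

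Loci in the middle of the list and at its edge show where the limit fell. At the middle rank, ABG768_004217 had 536 and 475 normalised counts in control replicates 1 and 2, 291, 559 and 380 in the cryopreserved libraries and 23.6 in control replicate 3, a ratio of 0.0526. Its neighbour in rank, ABG768_007579, had 565 and 1116 in these controls, 851, 529 and 886 in the cryopreserved libraries and 42.7 in control replicate 3. The last loci inside the list, ABG768_023710 and ABG768_017460, both had a ratio of 0.0948. The first loci outside it, ABG768_027502 and ABG768_015791, had ratios of 0.0955 and 0.0956. The list therefore ends within a continuous run of values, and 319 eligible loci, or 2.53%, were below an eighth of their mean over the other 5 libraries.

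The same rule was applied to each of the other libraries in turn, as a description. The eligible loci differed: 12605 for control replicate 3 and 13046 for cryopreserved replicate 1, but 10282 to 10854 for the remaining libraries. For those remaining libraries the 3-fold limit also covers control replicate 3 and cryopreserved replicate 1. Loci far down in either of these could therefore not enter their lists. The locus at rank 200 was 10.5-fold below the mean of the others in control replicate 3. In control replicates 1 and 2 it was 2.08-fold and 2.03-fold lower, and in cryopreserved replicates 2 and 3 it was 2.54-fold and 1.69-fold lower. Only in cryopreserved replicate 1 was it further down, at 39.1-fold. The shape of the lists from these libraries differed. In cryopreserved replicate 1, 118 of the 200 lowest loci were at 0 counts, against 20 in control replicate 3 and 0 or 1 in the others. Below an eighth of the mean stood 379 eligible loci in cryopreserved replicate 1 and 319 in control replicate 3, and between 1 and 8 in each other library. No locus is on both the list of control replicate 3 and that of cryopreserved replicate 1, which follows from the 3-fold limit between the remaining libraries.

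**Figure D2:**
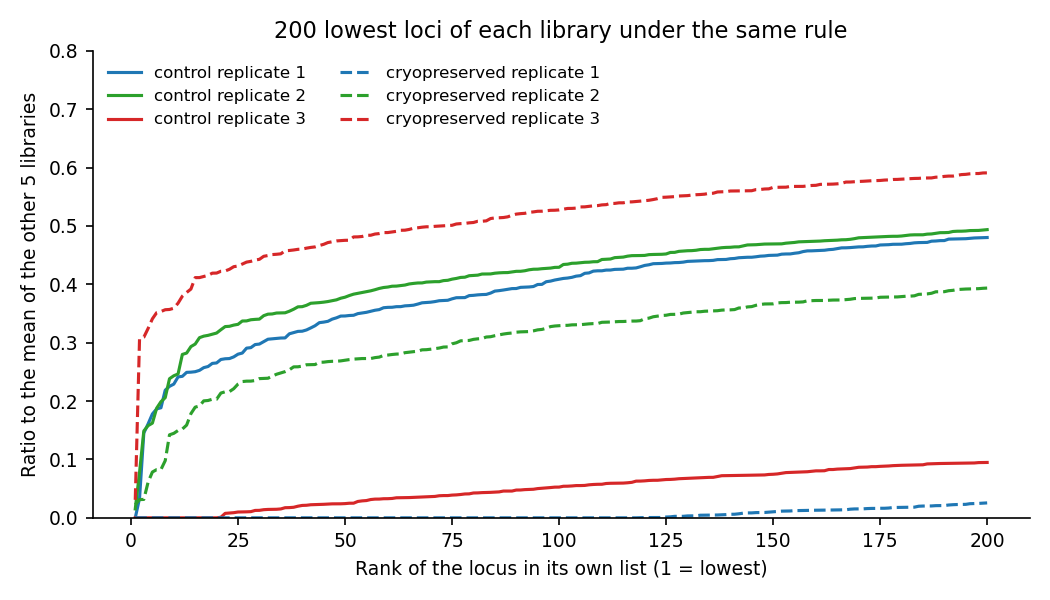
Ratio of a library to the mean of the other 5 for its 200 lowest loci under the same rule, ordered by rank in each library's own list. Solid lines are controls and dashed lines cryopreserved libraries, with replicates 1, 2 and 3 in blue, green and red. Control replicate 3 and cryopreserved replicate 1 stay at ratios up to 0.0948 and 0.0256, whereas the other 4 libraries reach 0.394 to 0.591.

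The depleted loci were long. Their median span, introns included, was 28.9 kb (interquartile range 13.2 to 64.4 kb), against 11.7 kb (5.72 to 25.1 kb) for the other 12405 eligible loci. The loci that follow by ratio were long as well, with a median of 38.9 kb for the next 200 eligible loci and of 28.0 kb for the 400 after those, so span does not set the list apart from them. Of the 200, 154 were longer than the median of the other eligible loci, and 97 belonged to the longest of 5 equal classes of eligible loci by span. A span over 100 kb was found for 24 of them, or 12%, against 3.16% of the other eligible loci. Span was not used by the rule, but a trend of this library with span was known from earlier results on these data, so the difference is no independent evidence of it.

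The share of eligible loci on the list went from 0.635% in the shortest class, with spans of 0.183 to 4.90 kb, to 3.85% in the longest, with spans of 31.0 to 388 kb, and was lowest in the second class at 0.476%. The median ratio of all eligible loci in control replicate 3 went from 1.30 in the shortest class through 1.17, 1.01 and 0.867 to 0.645 in the longest. In the longest class 37.1% of eligible loci were more than 2-fold below their mean over the other 5 libraries, against 8.33% in the shortest. Short loci were also on the list. Its shortest locus spans 0.786 kb, and 8 of the 200 loci span less than 2 kb, or 4%, against 5.84% of the other eligible loci. Across all 12605 eligible loci, which share the same libraries and are not independent, Spearman's rho of the ratio with span was -0.424. Within the 200, whose ratios the rule confines to a narrow range, rho was -0.010 with span and 0.405 with the mean count over the other 5 libraries. The loci at 0 counts had a median span of 42.6 kb and the rest of the list 27.0 kb.

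**Figure D3:**
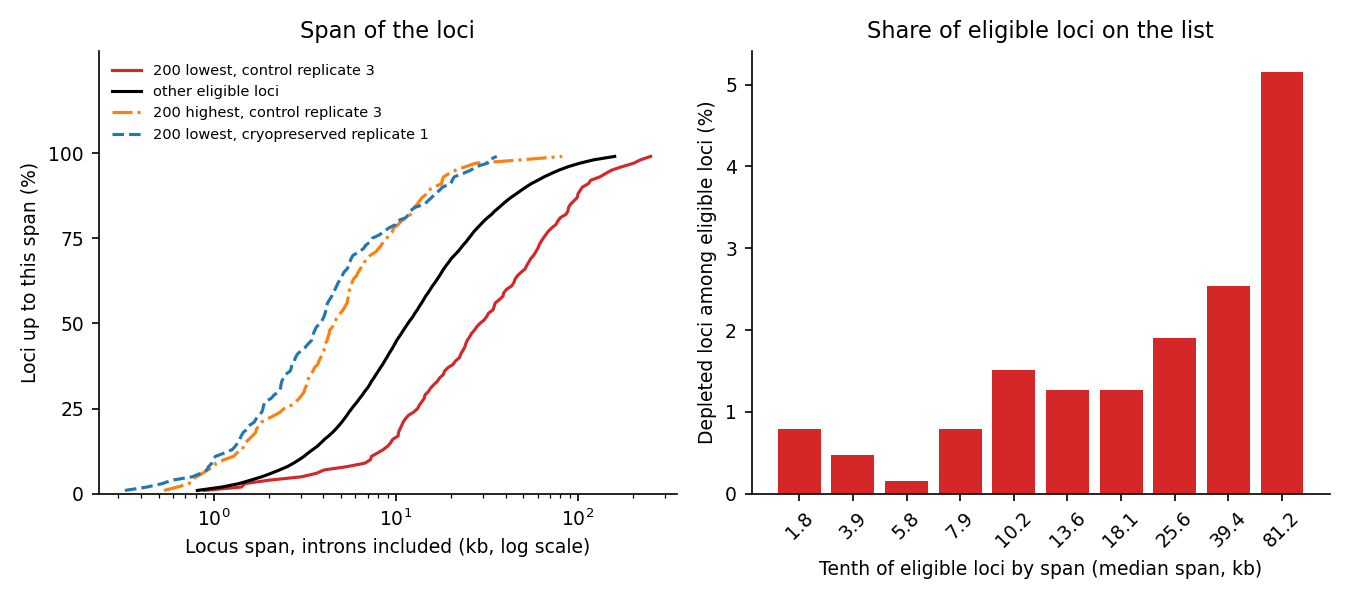
Left, cumulative percentage of loci up to a given span (kb, logarithmic axis) for the 200 depleted loci, the other eligible loci, the 200 highest loci of control replicate 3 and the 200 lowest of cryopreserved replicate 1. Right, percentage of eligible loci on the list of depleted loci in each of 10 equal classes by span, labelled with the median span of the class. The depleted loci lie to the right of the other eligible loci, and the last class, with a median span of 81.2 kb, holds 5.15%.

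Counts were lower on the list than among other eligible loci, with a median of 282 against 647 normalised counts over the other 5 libraries. These are counts per locus and not levels per length. By abundance, 90 of the 200 were in the lowest of 5 equal classes of eligible loci and 10 in the highest. The difference in span was present in each of these classes. It was 23.8 kb against 7.21 kb in the least abundant class, 32.9 against 9.41 kb in the second, 34.3 against 11.8 kb in the third, 57.1 against 15.2 kb in the fourth and 41.7 against 15.6 kb in the most abundant. All 20 loci at 0 were in the least abundant class, where a given ratio means fewer counts.

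At the opposite end of control replicate 3, the 200 eligible loci with the highest ratio had a median span of 4.58 kb. The 200 lowest loci of cryopreserved replicate 1, the other library that stood apart, had a median span of 3.84 kb, so the 2 depleted lists lay on opposite sides of the eligible loci by span. The 200 lowest loci of control replicate 2 were also short, with a median of 4.29 kb, and those of the remaining libraries had medians between 8.05 and 9.63 kb.

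The annotation gives more than 1 protein for 4 of the 200 loci, or 2%, against 8.68% of the other eligible loci. That share is 6.55% in the shortest and 9.08% in the longest span class of those other loci. The 200 lowest loci of cryopreserved replicate 1 include 0 with more than 1 protein, against 9.06% of the loci eligible for that library. Those of control replicates 1 and 2 include 9 and 21, and those of cryopreserved replicates 2 and 3 include 9 and 15. For these libraries 9.69% to 9.88% of eligible loci have more than 1 protein. Shares were not compared by abundance. One locus on the list has a span that overlaps another locus, a share of 0.50% against 1.87% of the other eligible loci, and its reads could have been split between both. Whether other loci share reads with near-identical copies could not be checked.

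Few depleted loci lay side by side in the annotation. The 200 loci lay on all 24 chromosomes, with 2 to 15 on each, and made up 0.259% to 3.69% of a chromosome's eligible loci. Only 6 had another locus of the list beside them, in 3 pairs. Lists of the other libraries made by the same rule held between 4 and 15 such loci. Among loci next to a depleted one, 216 were eligible and not on the list themselves. Their median ratio in control replicate 3 was 0.901, against 0.994 for all eligible loci, and 20.4% of them were more than 2-fold lower than in the other libraries, against 16.4% of the eligible loci outside the list. Their median span was 13.0 kb.

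The loci around the adjacent pairs differed in whether they were low too. ABG768_021894 had 1530 and 803 normalised counts in control replicates 1 and 2, 749, 658 and 625 in the cryopreserved libraries and 8.99 in control replicate 3. ABG768_021895, which follows it and spans 1.43 kb, had 357 and 484 in these controls, 271, 616 and 516 in the cryopreserved libraries and 11.2 in control replicate 3. These loci were 97.1-fold and 40.0-fold below their means. The locus before this pair had 39.3 normalised counts in control replicate 3, within the range from 0 to 100 of its other libraries, and the locus after it had no counts in any library. ABG768_025764 had 1263 and 1444 in control replicates 1 and 2, 977, 1191 and 1360 in the cryopreserved libraries and 86.5 in control replicate 3. ABG768_025765 beside it had 234 and 294, then 140, 181 and 221, and 13.5 in control replicate 3. The locus before this pair was low as well, with 76.4 normalised counts in control replicate 3 against a mean of 252 in the other 5, a 3.30-fold difference. The locus that follows it had 5519 in control replicate 3, above its mean of 3968 in the other 5. In the last pair, ABG768_026645 had 246 and 546 in control replicates 1 and 2, 662, 240 and 386 in the cryopreserved libraries and 15.7 in control replicate 3. ABG768_026646 had 309 and 189, then 143, 297 and 164, and 10.1 in control replicate 3. The locus before this last pair had 197 normalised counts in control replicate 3, within the range from 69.5 to 447 of its other libraries. The locus after this last pair was eligible and low as well, with a ratio of 0.117 at rank 286.

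In the other 5 libraries the depleted loci did not all stand at one level. The median ratio of the highest to the lowest of these libraries was 2.08 on the list and 1.80 for the other eligible loci. Which of these libraries was high or low was not used by the rule, apart from the 3-fold limit. In control replicate 2, 176 of the 200 loci, or 88%, were above their mean over the 5 libraries, against 42.4% of the other eligible loci. The median log2 ratio was 0.32, against -0.05 for the other eligible loci. In cryopreserved replicate 2, 33 of 200, or 16.5%, were above their mean, against 48.4%, with a median of -0.38 against -0.01. Medians in control replicate 1, cryopreserved replicate 1 and cryopreserved replicate 3 were -0.01, -0.11 and -0.02. Cryopreserved replicate 1 was the highest of the 5 libraries for 48 loci and the lowest for 62. These were 24% and 31%, against 33.2% and 28.8% of the other eligible loci. Control replicate 2 was the highest for 97 loci, or 48.5%, against 13.7% of the other eligible loci. Cryopreserved replicate 2 was the lowest for 96, or 48%, against 24.6%. Cryopreserved replicate 2 thus stood below control replicate 2 in 173 of 200 loci, by a median of 0.72 log2 units, whereas 47.3% of the other eligible loci were higher in control replicate 2.

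Length and these differences moved together in part. In the longest span class of the other eligible loci, the medians were 0.06 in control replicate 2 and -0.09 in cryopreserved replicate 2, and 62.0% were higher in control replicate 2 than in cryopreserved replicate 2. In the shortest class of the other eligible loci these medians had the opposite signs, at -0.18 and 0.13. Among depleted loci the medians of these libraries were 0.39 and -0.41 for the 97 in the longest class, and 0.23 and -0.36 for the 103 in the 4 shorter ones. Their separation on the list was thus present in both span groups. The 4 shorter classes held 16, 12, 35 and 40 depleted loci from the shortest up, so most of that group was of middle span. The part that span has in the separation was not tested. The pattern did not stop at the edge of the list: of the 200 eligible loci that follow, 88.0% were above their mean in control replicate 2 and 19.0% in cryopreserved replicate 2.

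**Figure D4:**
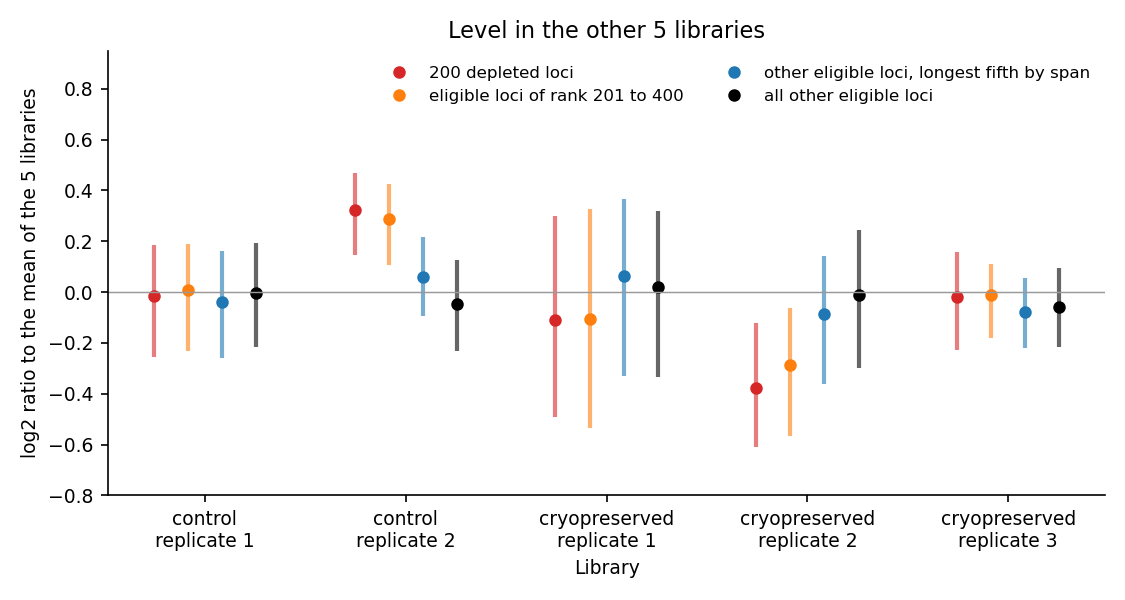
Log2 ratio of each of the other 5 libraries to their mean, for the 200 depleted loci, the next 200 eligible loci by ratio, the longest of 5 span classes of the other eligible loci, and all other eligible loci. Points are medians over loci and bars the interquartile range. The depleted loci stand at 0.32 in control replicate 2 and at -0.38 in cryopreserved replicate 2, and within 0.11 of 0 in the other 3 libraries.

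The series was made to compare cryopreserved with control animals. For these loci the median change in that comparison had opposite signs with and without the library that defines them. No depleted locus passed the test with or without control replicate 3. With all 6 libraries, edgeR's quasi-likelihood test called 0 of 21846 loci at an adjusted p of 0.05 (0%), and 0 of the 200. DESeq2, given 25619 loci, called 5, with 0 of them on the list. With so few calls, their absence from the list says little about these loci. The median fitted log2 fold change of the list was 0.28, with 166 of 200 higher in the cryopreserved group, against a median of 0.02 over all tested loci. That direction holds the rule's own library and is no result about the treatment. A fitted level more than 2-fold higher was reached by 1 of the 200, against 3.66% of all tested loci. The rule's 3-fold limit and count minimum confine the fitted changes of the list. The tested loci have no such limits, so these shares are not like for like. At an unadjusted p under 0.05 there were 0 of the 200 in either direction, where 0.385% of all tested loci were higher and 0.197% lower. The rule sets control replicate 3 far below the other controls at these loci, which widens the spread within the control group. Small p-values could hardly arise there, so this 0 is no result about the loci.

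Without control replicate 3, edgeR again called 0 of 22365 loci (0%) and 0 of the 200. DESeq2, given 25503 loci, called 18, with 0 on the list. The median fitted log2 fold change of the list was then -0.27, against 0.03 over all tested loci, and 37 of 200 were higher in the cryopreserved group. As ratios of mean normalised counts, 168 of the 200 were lower in the cryopreserved libraries than in control replicates 1 and 2, with a median log2 ratio of -0.29 (interquartile range -0.52 to -0.08). Among the other eligible loci 47.8% were lower and the median was 0.02. For 51 of the 200, or 25.5%, every cryopreserved library was below both controls, where 6.87% of all tested loci were. For 0 of them every cryopreserved library was above both, where 6.08% of all tested loci were. The next 200 eligible loci by ratio gave 24.5% and 0%. At an unadjusted p under 0.05, 2 of the 200 were lower and 0 higher, against 0.434% and 0.814% of all tested loci.

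This lean towards lower levels was smallest without control replicate 2. With that library also left out and the list kept, 117 of 200, or 58.5%, were lower in the cryopreserved libraries. The median log2 ratio was -0.11. Among the other eligible loci 48.8% were then lower, with a median of 0.01. Leaving out control replicate 1 instead gave 177 and -0.43, against 43.1% and 0.05. Without cryopreserved replicate 1, 2 or 3 there were 180, 139 and 161, with medians of -0.33, -0.24 and -0.36. The other eligible loci gave 53.2%, 49.1% and 45.1%, with medians of -0.02, 0.01 and 0.04. By library, the median log2 ratio of the list to control replicates 1 and 2 was -0.32, -0.53 and -0.18 in cryopreserved replicates 1, 2 and 3. For the other eligible loci it was 0.02, -0.004 and -0.05.

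**Figure D5:**
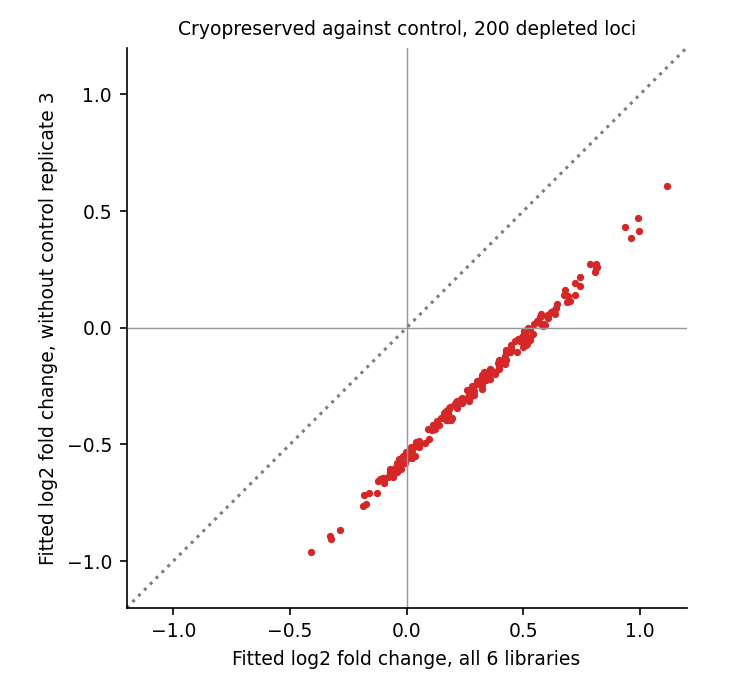
Fitted log2 fold changes of the 200 depleted loci between cryopreserved and control libraries, with all 6 libraries on the horizontal axis and without control replicate 3 on the vertical axis. Each point is a locus, and the dotted line marks equal values. All points lie below that line, because a library near 0 lowers the control mean, and the median moves from 0.28 to -0.27.

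Named next are the depleted loci with the smallest unadjusted p in each direction, in the fit without control replicate 3. They were picked as extremes and do not show a typical size. Fitted log2 fold changes of the list ran from -0.96 to 0.61 in that fit, with a median of -0.27. ABG768_027260 had 869 and 751 normalised counts in control replicates 1 and 2 and 378, 390 and 463 in the cryopreserved libraries. No cryopreserved library reached either control. The fitted log2 fold change was -0.96 ± 0.29 (SE), with an adjusted p of 0.999958 in edgeR's quasi-likelihood test. In control replicate 3 it had 38.2, and with that library in the fit the log2 fold change was -0.41 ± 0.86 (SE). ABG768_022775 had 516 and 367 in these controls, 223, 213 and 267 in the cryopreserved libraries and 12.4 in control replicate 3. Its log2 fold change was -0.89 ± 0.35 (SE), again with an edgeR adjusted p of 0.999958.

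In the other direction the groups overlapped. ABG768_005576 had 778 and 535 normalised counts in control replicates 1 and 2 and 1536, 904 and 524 in the cryopreserved libraries, the last below both controls. It had 70.8 in control replicate 3. The log2 fold change without that library was 0.61 ± 0.49 (SE), and it was 0.15 when cryopreserved replicate 1 was left out as well. ABG768_000982 had 538 and 995 in these controls, 654, 1539 and 941 in the cryopreserved libraries and 69.6 in control replicate 3, with a log2 fold change of 0.47 ± 0.47 (SE). Without cryopreserved replicate 2 as well it was 0.08, and without control replicate 1 as well it was 0.10. Both had an adjusted p of 0.999958 with edgeR.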

How the data were processed

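RNA was extracted with Trizol, captured on poly-T beads and reverse transcribed from random hexamers, per the labels' protocols. The authors deposited raw read counts per gene locus for 6 libraries. For the aligner, counting program, genome build and strand setting, the sources used here give nothing. All 28228 locus tags occur in the annotation of assembly ASM4018292v1, which was used for the order, span and number of proteins of loci; 0 have a symbol other than the tag. Because that assembly may not be the one behind the counts, no coordinates are given.

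Columns were matched to samples by title. The 200 loci were chosen with DESeq2's median-of-ratios size factors (DESeq2 1.42.0). Groups were compared with the quasi-likelihood test of edgeR 4.0.16 in R 4.3.3, on all loci kept by edgeR's default filter, with TMM scaling, the group as the only term and Benjamini-Hochberg adjustment over all tested loci. The SE of a fitted log2 fold change is its absolute value divided by the square root of the test's F statistic. The procedure was also run on simulated counts with known changes. The share of those changes that it recovered is not reported here. Named loci are the 4 with the lowest ratio, the 4 with the highest mean, the pair at the middle rank, the pairs just inside and outside the limit, the adjacent pairs, and, for either direction, the pair of smallest p without control replicate 3. Proteins were not compared with each other. The loci, lists and tests were chosen with earlier results of these data known. Alternatives were other size factors, count minimums, spread limits and list lengths, DESeq2, no filter, a replicate block, and leaving out each library in turn. Those for the 4 loci with the smallest p, and those that keep the list while leaving out a further library, were added after seeing the data. Further values used Python 3.11.15.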

Additional observations from a re-analysis of the deposited data

How the results depend on the processing

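The median log2 ratio of control replicate 3, -4.23 as reported, was -4.42 with library totals as size factors, -4.70 and -3.32 with count minimums of 20 and 200, -3.21 with a spread limit of 2, and -5.34 and -3.39 with 100 and 400 loci. Re-choosing the list without each other library gave -4.74 to -4.22. The number at 0 counts was 44 and 0 with these count minimums and 5 with the spread limit of 2. The median span, 28931.5 bases, was 42853 with the minimum of 200 counts. Otherwise it lay between 24304, with the minimum of 20 counts, and 34895, with 400 loci. Loci beside another of the list numbered 0 with library totals and with the spread limit of 2, and 21 of 400. The list shared 199 loci with that from TMM factors, 94 with the minimum of 200 and 84 with the spread limit of 2. The median log2 ratio of the cryopreserved libraries to control replicates 1 and 2 was -0.35 to -0.18 when the list was re-chosen without 1 cryopreserved library. Re-chosen without control replicate 1, the list had a median of -0.43 against control replicate 2 alone. Without control replicate 2 it had -0.11 against control replicate 1 alone, the value nearest 0.

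Called loci numbered 0 under every edgeR alternative and 5 with DESeq2, none of them on the list. With the replicate block the calls were 0 over all loci and 0 on the list, with 75 loci at an unadjusted p under 0.05 against 127 without it. The deviations of same-numbered libraries from their group means had correlations of -0.17, -0.44 and -0.06. With so few libraries these values cannot decide whether same-numbered samples share a clutch or tank, which the labels do not state. For the 4 loci named by p, 10 alternatives each kept the sign. Ratios rest on few counts for the 93 loci with at most 10 counts in control replicate 3.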

Other observations

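Even counts were more frequent than odd ones among the low values of control replicate 3, on the list and outside it. Of the depleted loci with 1 to 20 counts in that library, 62 had an even count, or 61.4%, against 67.9% of the counts from 1 to 20 at all other loci of the library. The other 5 libraries were not examined for this, so it cannot be called particular to control replicate 3. Why even counts were more frequent was not tested.

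The 3-fold limit on the other 5 libraries kept out 113 loci with 50 or more counts in all of them and a ratio at or below that of the last locus on the list.

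The 200 lowest loci of cryopreserved replicate 1, most of them short, had a median log2 ratio of 0.15 in control replicate 3 to the mean of the remaining 4 libraries. Conversely, the loci depleted in control replicate 3 had a median of -0.14 in cryopreserved replicate 1. The 3-fold limit of each list covers the other of these libraries, so the rule confines both medians.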
